A study of Macaca fascicularis with 23 samples.

Results

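The expression of 10 genes of hepatic stellate cells and of the extracellular matrix was followed in livers of ciprofibrate-dosed cynomolgus monkeys (Macaca fascicularis). Ciprofibrate is a lipid-lowering fibrate and an agonist of PPAR-alpha, a nuclear receptor of fatty acid catabolism. The genes were the metalloproteinase inhibitor TIMP1, fibronectin (FN1), the collagen chains COL1A1, COL1A2, COL3A1 and COL6A3, the collagen-crosslinking enzyme LOX, the cytoskeletal genes VIM and TAGLN, and the growth factor receptor PDGFRA. They were taken by name, as every probe set whose array annotation named 1 of them, which gave 20 of the 12625 probe sets on the array. Of these, 14 passed a filter on low intensity and were tested among 7535 probe sets, and each of the 10 genes had at least 1 tested probe set. PDGFRA probe set 1968_g_at, which also names FIP1L1, was among the 6 below the filter. The 10 genes, and the gene lists used further below, were chosen with earlier results of these data known. Setting them beside all probe sets is therefore a description and no independent support.

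The study measured 23 livers, 1 animal per array, in 7 groups. Vehicle was given for 4 days to 2 animals and for 15 days to 3. The 4-day ciprofibrate group had 2 animals, dosed with 400 mg/kg/day. The 15-day doses were 3, 30, 150 and 400 mg/kg/day, with 4 animals each. The labels used here give no sex, age or origin of the animals, and all dose groups at 15 days are compared with the same 3 vehicle animals. The array carries human probes, so a probe set's signal can depend on monkey sequence, and values are compared only within a probe set.

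Stellate cells lie between the sinusoidal endothelium and the hepatocytes, where they store vitamin A in healthy liver. In injured liver they become myofibroblast-like cells that lay down fibrillar collagen and fibronectin, respond to platelet-derived growth factor and secrete TIMP1, which blocks the proteases that degrade matrix. Fibronectin is also a plasma protein made in quantity by hepatocytes, and vimentin is present in endothelial cells, macrophages and leukocytes, so neither belongs to stellate cells alone. The samples are whole pieces of liver, in which fewer cells of a type and less RNA per cell cannot be told apart.

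Values are MAS5 intensities on a linear scale. Changes are differences of log2(intensity + 16) with their standard error (SE) from limma's fit to all 7 groups, and a probe set was called at a Benjamini-Hochberg adjusted p under 0.05 over the 7535 tested. The pseudocount of 16 makes the change of a dim probe set smaller than the ratio of its intensities. The standard deviation (SD) is that of the animals in a group, and the number of arrays limits the precision.

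After 15 days at 400 mg/kg/day, TIMP1 and FN1 were lower than in vehicle animals, and none of the 10 genes was called higher. Of the 14 member probe sets, 3 fell, 0 rose and 11 were not called, where 2.14% of all tested probe sets were called. The 3 were 1 probe set of TIMP1 and 2 of FN1. Over the 10 genes, each taken by its probe set with the highest mean, 9 had a negative change and the median was -0.52, beside -0.03 over all tested probe sets. Because the 10 genes were chosen with earlier results known, this comparison is descriptive. Among all 7535, 95 rose and 66 fell.

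COL1A1, COL1A2, COL3A1 and LOX were not called in any of the 10 comparisons made here, and neither were VIM, TAGLN and PDGFRA. COL6A3, a chain of the microfibril-forming type VI collagen, was called only where the doses were compared with each other or as a trend.

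TIMP1 (probe set 1693_s_at) was lower in every animal dosed for 15 days than in the 3 vehicle animals of that day. The 3 vehicle animals read 285.3, 173.4 and 143.2. At 3 mg/kg/day the 4 animals read 101.6, 26.3, 136.6 and 31, and at 30 mg/kg/day 44.6, 124, 37.3 and 47.6. At 150 mg/kg/day they read 41.1, 34.1, 33 and 33, and at 400 mg/kg/day 40.5, 45.1, 40.5 and 49.1. The highest of the 16 dosed animals, 136.6, was thus below the lowest vehicle animal, 143.2, and the 2 higher dose groups were tightly bunched around the intensity of 39.7 that the filter required of a mean.

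The TIMP1 group mean went from 200.6 ± 74.9 (SD, n = 3) in vehicle to 73.9 ± 54.2 at 3 mg/kg/day and 63.4 ± 40.6 at 30 mg/kg/day, and then to 35.3 ± 3.90 at 150 mg/kg/day and 43.8 ± 4.15 at 400 mg/kg/day (SD, n = 4 each). On the log2 scale, deviations from the group mean ran from -0.39 to 0.53 in vehicle animals and more widely, from -0.87 to 0.98, at 3 mg/kg/day, while those at 150 mg/kg/day ran from -0.06 to 0.16 and those at 400 mg/kg/day from -0.08 to 0.13. At the 2 lower doses the animals did not form 1 cluster: 2 animals at 3 mg/kg/day and 1 at 30 mg/kg/day read above 100, while the other 5 read between 26.3 and 47.6.

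Against vehicle, the TIMP1 change was -1.81 ± 0.42 (SE) at 400 mg/kg/day (limma adjusted p = 0.0228), which is 3.50-fold lower on the scale with the pseudocount. At 150 mg/kg/day it was -2.03 ± 0.42 (adjusted p = 0.0239), against a group mean of 35.3 that lies under the filter's intensity of 39.7, so its size is not exact. That call was the only one among the 14 member probe sets at this dose, where 0.677% of all tested probe sets were called. Changes of -1.51 ± 0.42 at 30 mg/kg/day (adjusted p = 0.255) and -1.43 ± 0.42 at 3 mg/kg/day (adjusted p = 0.238) were not called. No member was called at either dose, where 0.0133% of all probe sets, a single one, and 0% were called. At an unadjusted limma p under 0.05 there were 1 and 2 member probe sets, of 740 and 757 in all. Leaving out vehicle replicate 1 or 2, or 400 mg/kg/day replicate 1 or 3, ended the call at 400 mg/kg/day, with the adjusted p reaching 0.151. The call at 150 mg/kg/day was lost in 4 of 7 such fits, without vehicle replicate 1 or 2 or 150 mg/kg/day replicate 2 or 4.

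The mean of the 4 doses against vehicle was compared after these values had been seen, so it restates them and adds no support. The TIMP1 difference was -1.69 ± 0.35. It was the 1 member probe set called, where 0.239% of all tested probe sets were called, and the call was lost in 8 of 19 fits without 1 animal and with no filter. The TIMP1 slope over the 5 equally spaced dose steps, vehicle included, was -0.42 ± 0.09 per step (adjusted p = 0.0106). Between 400 and 3 mg/kg/day the difference was -0.37 ± 0.39, with a 95% interval from -1.19 to 0.44. A difference between the highest and lowest doses was therefore not detected for TIMP1, and the interval allows a further fall as well as a small rise.

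After 4 days TIMP1 read 196.2 and 182.8 in the vehicle animals and 252.7 and 89 at 400 mg/kg/day. The treated animals thus lay on both sides of the vehicle animals, and the change was -0.29 ± 0.56. The difference between the 15-day and the 4-day effect was -1.52 ± 0.70 (limma adjusted p = 0.999), so it did not pass the test over all probe sets. Neither did any other member, nor any of the 7535 (0% called), where 1 member probe set and 254 in all had an unadjusted p under 0.05.

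FN1 was measured by 3 probe sets that followed each other across the 23 arrays, with Pearson correlations of log2 values of 0.945, 0.788 and 0.703. On probe set 31720_s_at the vehicle animals at 15 days read 6247.2, 5421.2 and 4571.5. The animals at 3 mg/kg/day read 5415.9, 5466.9, 6929.9 and 3418.3, and those at 30 mg/kg/day 3627.1, 5341.5, 5495.6 and 5431.9, within or near the vehicle range except for 1 low animal in each group. At 150 mg/kg/day the values were 5115.6, 3869.9, 3132 and 2956.7. At 400 mg/kg/day they were 2289.2, 2146.8, 2043.2 and 2798.6, and every animal was below all animals of the 4 other 15-day groups.

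The fall of FN1 at 400 mg/kg/day was -1.22 ± 0.23 (adjusted p = 0.00415), or 2.32-fold, on this probe set. On 311_s_at it was -1.60 ± 0.31 (adjusted p = 0.00479), or 3.03-fold, with intensities of 1406.3, 1358.5, 1258.4 and 1252.8 against 5219.4, 4078.5 and 3070.5 in vehicle. On 31719_at the values were 3694.9, 2906, 2456.5 and 2880.9 against 4139.1, 6237.1 and 4557.4. Treated and vehicle animals did not overlap on this probe set either, but the change of -0.73 ± 0.31 was not called (adjusted p = 0.295).

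At 3 mg/kg/day the FN1 changes from vehicle were -0.06 ± 0.23 on 31720_s_at, -0.07 ± 0.31 on 31719_at and -0.35 ± 0.31 on 311_s_at, none of them called. Compared directly, 400 mg/kg/day was lower than 3 mg/kg/day by -1.15 ± 0.21 on 31720_s_at (adjusted p = 0.00200) and by -1.25 ± 0.29 on 311_s_at (adjusted p = 0.0120). In this comparison 3 of the 14 member probe sets fell, 0 rose and 4.18% of all tested probe sets were called. The slope was -0.29 ± 0.05 per dose step on 31720_s_at (adjusted p = 0.00116) and -0.38 ± 0.07 on 311_s_at (adjusted p = 0.00176). On 31719_at it was -0.18 ± 0.07 (adjusted p = 0.172).

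COL6A3 (38077_at) was near its vehicle level at 3 mg/kg/day and lowest at 400 mg/kg/day. The vehicle animals at 15 days read 214.8, 194.2 and 177.3, and those at 3 mg/kg/day 190.4, 150.3, 224.3 and 214.9. The 30 and 150 mg/kg/day groups ran from 146.6 to 202.8 and from 126.4 to 200.3. At 400 mg/kg/day the values were 104.3, 152, 85.8 and 76.7, so 3 of 4 animals were below every other animal at 15 days. The fourth, replicate 2, lay inside the range of the lower doses.

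The COL6A3 change at 400 mg/kg/day against vehicle was -0.84 ± 0.23 and missed the threshold (adjusted p = 0.0623). Without replicate 2 it was -1.02 (adjusted p = 0.0241). In the other 6 fits without 1 animal it was not called, with an adjusted p of up to 0.223. Against 3 mg/kg/day the gene was lower by -0.83 ± 0.22 (adjusted p = 0.0279), and the slope over dose was -0.19 ± 0.05 per step (adjusted p = 0.0367). For the slope 4 of the 14 member probe sets fell, those of TIMP1, FN1 (31720_s_at and 311_s_at) and COL6A3, and 3.11% of all tested probe sets were called. The COL6A3 slope call was lost in 9 of 19 fits without 1 animal, namely without any vehicle animal, 3 mg/kg/day replicate 3, 150 mg/kg/day replicate 2 or 3, or 400 mg/kg/day replicate 1, 3 or 4. Its call against 3 mg/kg/day was lost in 6 of 8, without 3 mg/kg/day replicate 1, 3 or 4 or 400 mg/kg/day replicate 1, 3 or 4.

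**Figure D1:**
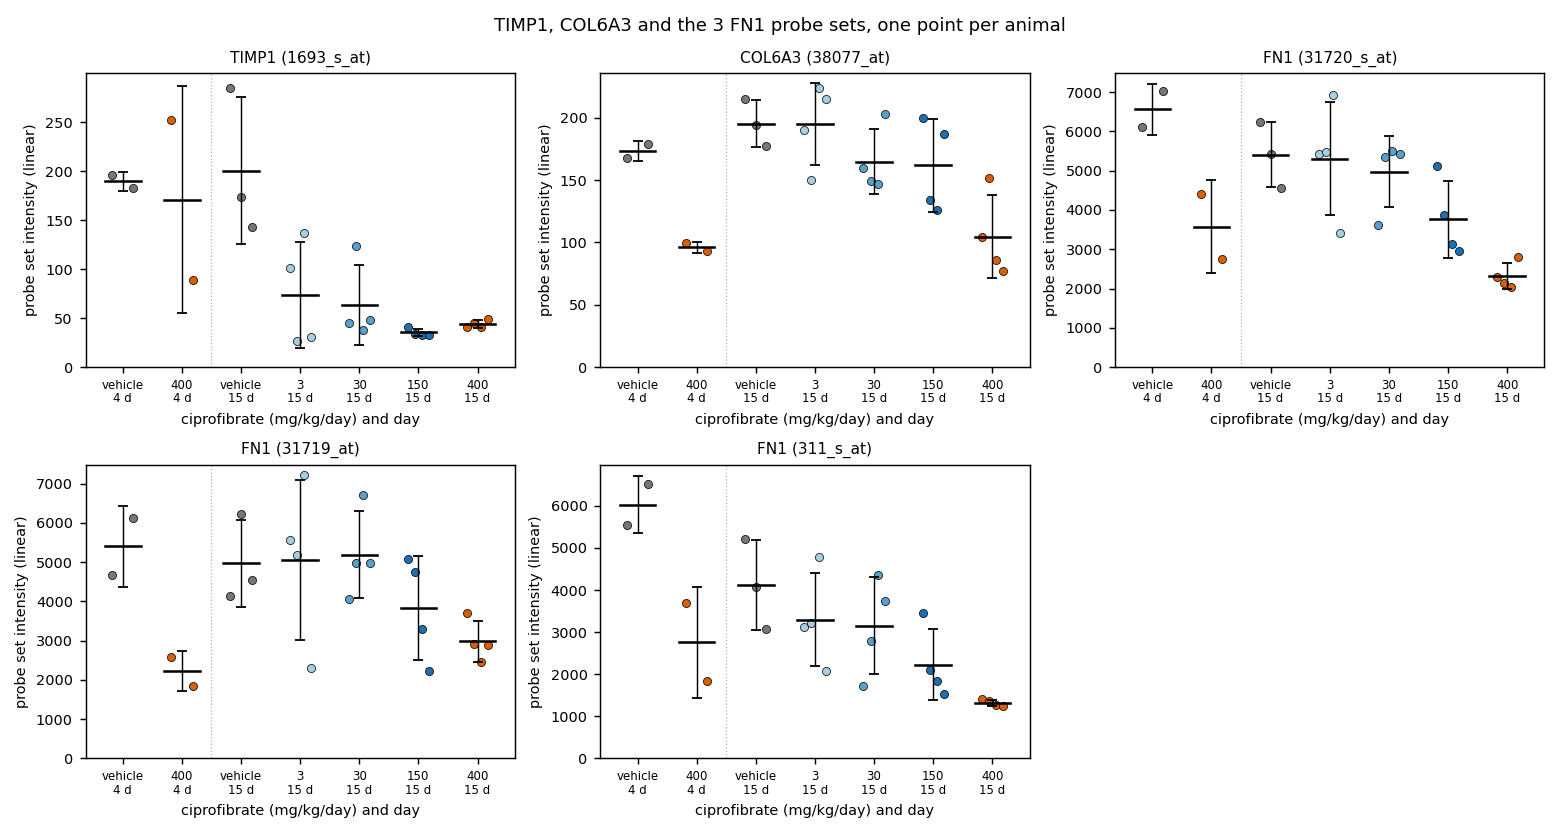
Intensity of TIMP1, COL6A3 and the 3 FN1 probe sets on linear axes that start at 0, for the 7 dose and day groups; points are single animals and bars the group mean with its SD. TIMP1 is below the vehicle animals of the same day in all 16 animals dosed for 15 days, while FN1 on 31720_s_at and 311_s_at at 400 mg/kg/day lies below all other 15-day animals.

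The fibrillar collagens were not called at any dose. The log2 changes of COL1A1, COL1A2 and COL3A1 were -0.43, -0.46 and -0.35 at 400 mg/kg/day and -0.63, -0.46 and -0.34 at 150 mg/kg/day. COL1A1 and COL1A2 encode the chains of type I collagen and COL3A1 that of type III, the main fibrils of scar tissue. COL1A1 (35473_at) read 162.7, 229.5 and 209.8 in the vehicle animals at 15 days and 73.1, 231.7, 134.7 and 175.7 at 400 mg/kg/day, so the groups overlapped. Its lowest 15-day group was that at 3 mg/kg/day, with 75.9, 60.2, 63.9 and 120.6, all below the vehicle animals of that day. The 2 vehicle animals at 4 days read 92.4 and 63.7, also below all vehicle animals at 15 days. That difference between the vehicle groups, 1.21 ± 0.47, was not called (limma adjusted p = 0.253).

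The COL1A1 change was -1.20 ± 0.39 at 3 mg/kg/day (adjusted p = 0.295) and -0.43 ± 0.39 at 400 mg/kg/day (adjusted p = 0.746), neither of them called. A second COL1A1 probe set, 35474_s_at, ran from 53.1 to 122.8 over all animals and changed by -0.25 and -0.29 at these doses. The correlation between the 2 probe sets across 23 arrays was 0.355.

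COL1A2 was tested on 32307_s_at, with 86.8, 101.3 and 48.8 in vehicle animals and 81.3, 34.5, 37.3 and 61.2 at 400 mg/kg/day. The groups overlapped, and the change of -0.46 ± 0.34 was not called (adjusted p = 0.674). Its other 3 probe sets were below the filter: 32305_at ranged from 5.5 to 89.2, 32306_g_at from 4.5 to 100.9 and 32308_r_at from 1.5 to 70.8. Their correlations with 32307_s_at lay between -0.00 and 0.34, so these probe sets followed it weakly or not at all.

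COL3A1 (32488_at) read 85.9, 229.7 and 120.4 in vehicle and 107.5, 113.2, 100.2 and 90.4 at 400 mg/kg/day. All treated values lay inside the vehicle range, and the change was -0.35 ± 0.37 (adjusted p = 0.796). Without vehicle replicate 2, the animal at 229.7, it was 0.01. The highest COL3A1 value of the study, 296.3, was in an animal at 30 mg/kg/day.

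LOX (38637_at), which oxidises lysines in collagen and elastin so that fibres crosslink, was lower at 400 mg/kg/day without overlap. Vehicle animals read 143.6, 129.6 and 133.6 and treated animals 90.5, 96, 67.9 and 88.9. The change of -0.58 ± 0.33 was not called (adjusted p = 0.506). The 2 vehicle animals at 4 days read 69.6 and 106.2, and those at 400 mg/kg/day at 4 days 87.4 and 85.5, so 3 of the 4 treated values at 15 days lay within the range of the vehicle animals at 4 days.

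**Figure D2:**
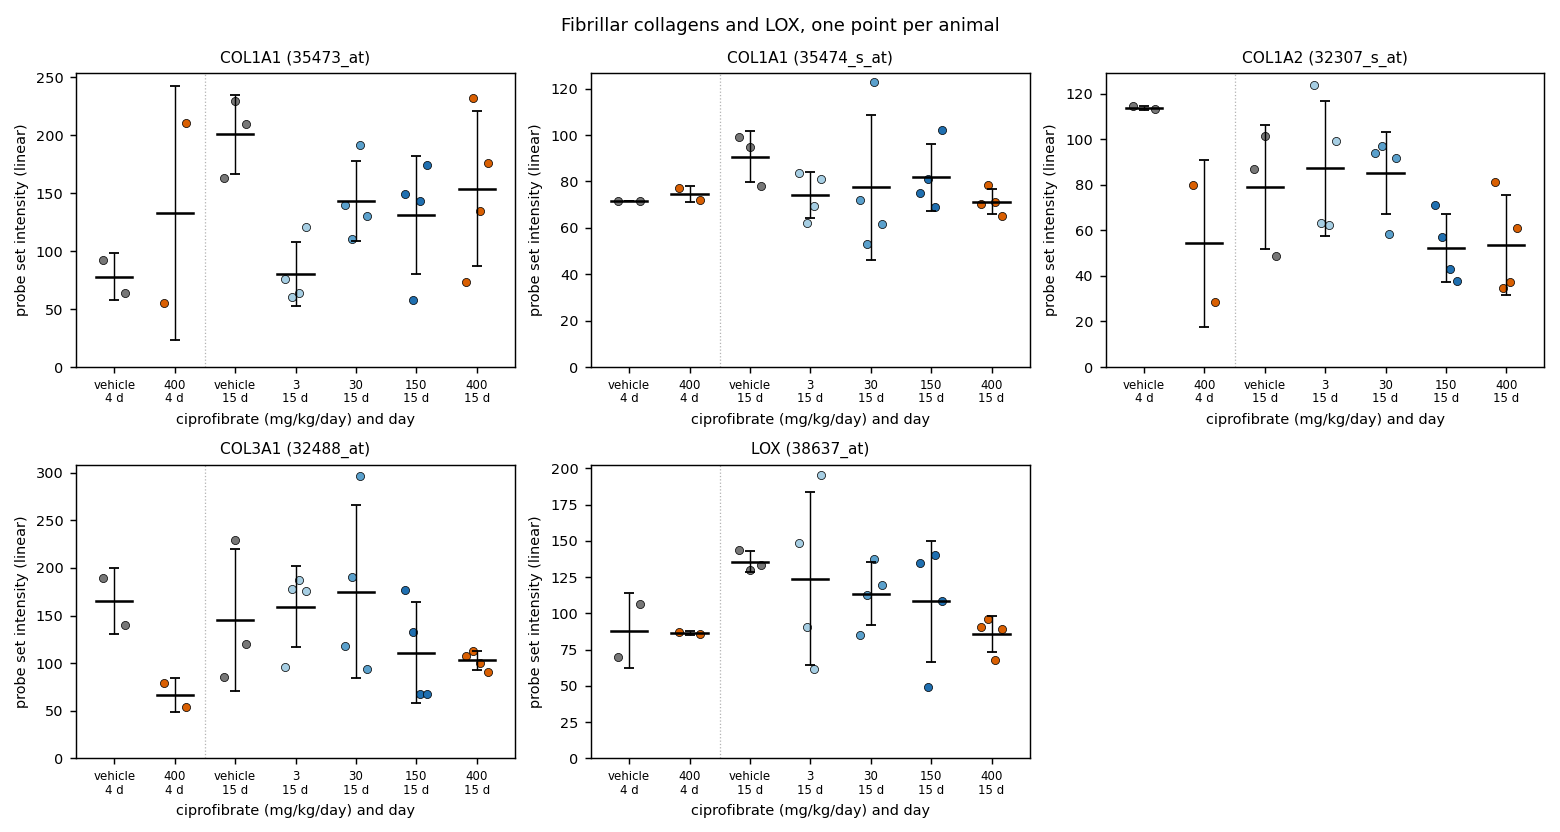
Intensity of the 5 tested probe sets of COL1A1, COL1A2, COL3A1 and LOX by dose and day group, on linear axes that start at 0. Points are single animals and bars the group mean with its SD; at 15 days the 400 mg/kg/day and vehicle animals overlap on all collagen probe sets, and for LOX they do not.

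VIM (34091_s_at), the intermediate filament of mesenchymal cells, read 392.5, 874.3 and 832.8 in vehicle animals at 15 days and 511, 438.1, 450 and 327.9 at 400 mg/kg/day. Vehicle replicate 1 was as low as the treated animals, and the change of -0.61 ± 0.25 was not called (adjusted p = 0.282). Without that animal it was -0.97 (adjusted p = 0.0432). At 4 days the 2 vehicle animals read 1394.1 and 1394.3 and the 2 treated animals 668.8 and 667.4.

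The VIM groups at 4 days were thus far apart and each nearly without spread, and the change was -1.04 ± 0.33 in the fit that shares its estimate of spread over all groups (adjusted p = 0.259). Vehicle animals were lower at 15 than at 4 days by -1.06 ± 0.30, which was not called (adjusted p = 0.0947). For that comparison of the vehicle groups 0 of 14 member probe sets and 0.863% of all tested probe sets were called, and 3 members and 978 in all had an unadjusted p under 0.05.

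TAGLN (36931_at), a smooth muscle and myofibroblast actin-binding protein, had the only positive change among the 10 genes after 15 days at 400 mg/kg/day, 0.44 ± 0.42 (adjusted p = 0.764). Vehicle animals read 262.8, 262.5 and 140.6 and treated animals 234.3, 265, 397.1 and 306.3, with overlap. Animals within a dose differed widely. At 150 mg/kg/day they read 270, 99.6, 447.9 and 401.8, a wider span than that from vehicle to any dose mean.

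PDGFRA, a receptor for platelet-derived growth factor, was tested on 2 probe sets that did not follow each other across the 23 arrays (correlation -0.213). On 1988_at, vehicle animals read 157.7, 151.6 and 171.5 and those at 400 mg/kg/day 142.8, 176.1, 134 and 123. On 1731_at these groups read 97.9, 94.5 and 104.8 and 104, 49.8, 99.5 and 99.7. The changes of -0.15 ± 0.22 and -0.18 ± 0.32 were not called, with 95% intervals from -0.60 to 0.30 and from -0.85 to 0.49. The remaining 3 probe sets were below the filter and ranged from 2.8 to 68.8 (1968_g_at), from 2.1 to 74.1 (1987_at) and from 1.6 to 48.9 (36157_at).

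**Figure D3:**
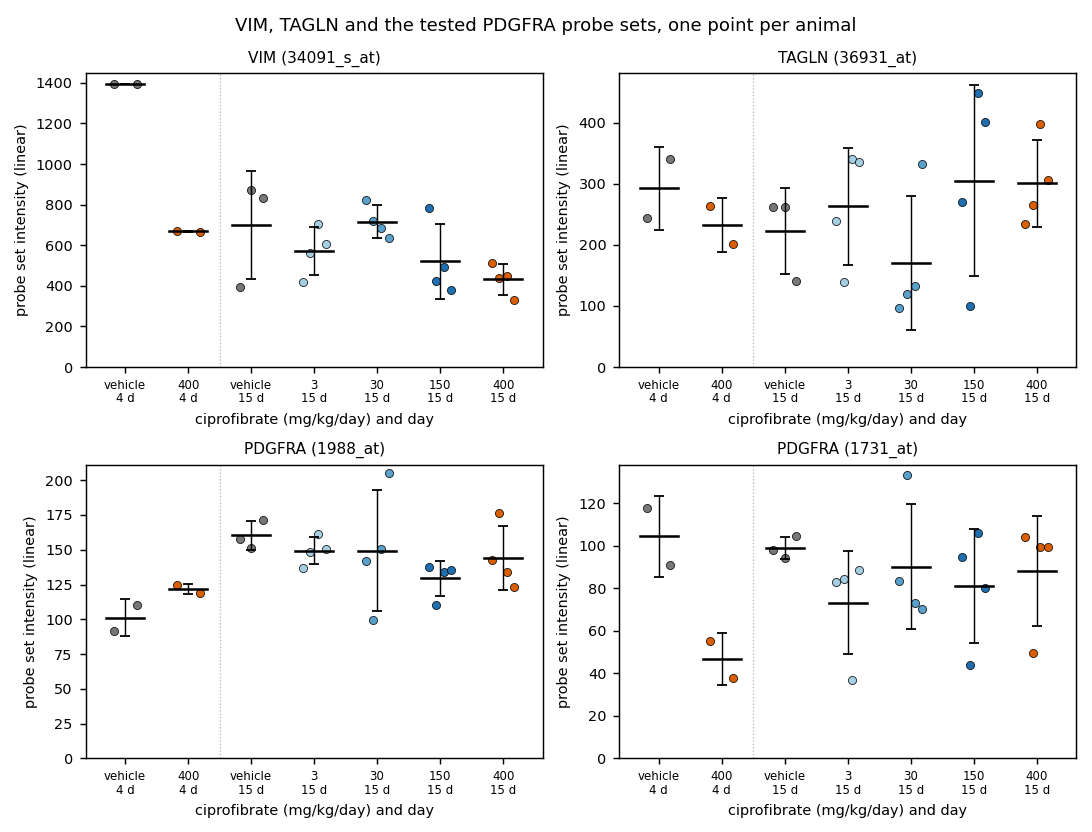
Intensity of VIM, TAGLN and the 2 tested PDGFRA probe sets by dose and day group, on linear axes that start at 0. Points are single animals and bars the group mean with its SD; the VIM animals at 4 days form a pair near 1394 on vehicle and a pair near 668 at 400 mg/kg/day, while for TAGLN and PDGFRA the 400 mg/kg/day and vehicle animals overlap at 15 days.

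After 4 days at 400 mg/kg/day, 0 of the 14 member probe sets were called, where 0.292% of all tested probe sets were called. At an unadjusted p under 0.05 there were 8 member probe sets, all lower, and 575 probe sets in all. The 8 were those of FN1 (-1.28 ± 0.40 on 31719_at, -1.21 ± 0.41 on 311_s_at and -0.91 ± 0.30 on 31720_s_at), COL3A1 (-1.13 ± 0.48), VIM, COL1A2 (-0.99 ± 0.45), PDGFRA on 1731_at (-0.95 ± 0.42) and COL6A3 (-0.75 ± 0.31). The adjusted p of these 8 lay at or above 0.257.

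The 2 treated animals at 4 days were below both vehicle animals on these same 8 probe sets. COL3A1 read 189.3 and 140.3 on vehicle and 79 and 54.1 at 400 mg/kg/day. COL6A3 read 167.4 and 179 against 99.4 and 93.2. Across all tested probe sets, 23.6% had both treated animals below both vehicle animals, which is the share to read the 8 of 14 against. On 2 member probe sets both treated animals were higher, by 0.05 ± 0.34 (COL1A1 35474_s_at) and 0.24 ± 0.29 (PDGFRA 1988_at). Neither was called, and the share of all tested probe sets that were higher without overlap was not counted.

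At 15 days the 400 mg/kg/day animals lay below all vehicle animals on 6 of 14 member probe sets, those of TIMP1, COL6A3, LOX and the 3 of FN1. In all tested probe sets 6.53% did so. The median change over the 10 genes was -0.52 at this dose, -0.38 at 150 mg/kg/day, -0.18 at 30 mg/kg/day and -0.08 at 3 mg/kg/day. Over all tested probe sets these medians were -0.03, -0.02, 0.00 and -0.02. The doses share their vehicle animals, so these 4 medians are not independent of each other. Shares and medians over all probe sets are given as description, since the 10 genes were chosen with earlier results known.

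**Figure D4:**
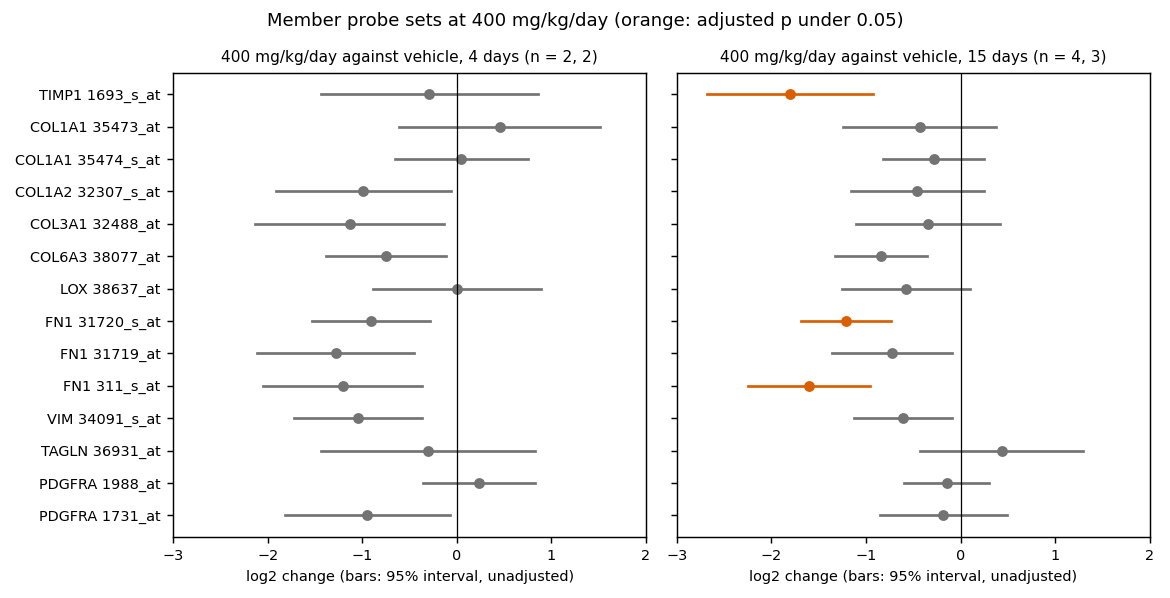
Change at 400 mg/kg/day against vehicle of the same day, as a difference of log2(intensity + 16), for the 14 tested probe sets of the 10 genes at 4 and 15 days. Points are estimates, lines their unadjusted 95% intervals, and orange marks a call; at 15 days TIMP1 and 2 FN1 probe sets are called, and at 4 days no probe set is.

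Other genes of the matrix were counted from lists grouped by function. Apart from the 10 genes, 133 listed genes were measured. After 15 days at 400 mg/kg/day, 1 of them rose, 3 fell and 129 were not called. That is 3.01% called, beside 2.14% of all genes, and the median change was -0.10 beside -0.03. For the slope over dose 1 rose and 8 fell (6.77% beside 3.20% of genes), and for 400 against 3 mg/kg/day 2 rose and 6 fell (6.02% beside 4.19%). None was called at 150, 30 or 3 mg/kg/day, at 4 days, between days or between the vehicle groups. In these comparisons 3 to 12 of the 133 had an unadjusted limma p under 0.05, beside 254 to 978 of all 7535 tested probe sets. For the mean of the 4 doses 0 were called and 10 had such a p, beside 805 of the 7535.

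By list, the 19 measured matrix glycoproteins and elastic fibre genes, FN1 included, had 2 falls at 400 mg/kg/day and 4 in the slope, where 2.14% and 3.20% of all genes were called. The lists of this paragraph keep the 10 genes in, and the fibrillar collagens include COL1A1, COL1A2 and COL3A1. Of 6 fibrillar collagens, 11 basement membrane collagens and laminins, 10 proteoglycans and 13 matrix proteases, 0 were called at 400 mg/kg/day by limma. At an unadjusted p under 0.05 there were 0, 0, 1 and 0, beside 940 of all 7535 tested probe sets. Of 13 genes of collagen processing and crosslinking, LOX included, 0 were called and 4 had such a p, with 10 lower and a median of -0.30. Medians were -0.39 for fibrillar collagens, -0.27 for basement membrane genes, -0.30 for proteoglycans and -0.24 for glycoproteins. Protease inhibitors had -0.23, with 1 fall, that of TIMP1. TGF-beta and PDGF genes, PDGFRA included, had -0.15 and matrix receptors -0.10. The other medians were 0.00 for matrix proteases (6 of 13 lower) and 0.04 for other collagens, COL6A3 included (4 of 10). Contractile genes, VIM and TAGLN included, had 0.09 (7 of 17). Quiescent stellate cell and fibroblast markers had -0.02 (5 of 10). No list was tested as a set.

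Biglycan (BGN), a small matrix proteoglycan, and SPARC, a collagen-binding glycoprotein, were lower at 400 than at 3 mg/kg/day, by -1.39 ± 0.26 (adjusted p = 0.00220) and -1.31 ± 0.23 (adjusted p = 0.00135). Neither was called against vehicle.

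SPARC (671_at) had a mean of 213.3 ± 67.1 (SD, n = 3) in vehicle animals, 281.4 ± 48.8 at 3 mg/kg/day and 102.6 ± 4.26 at 400 mg/kg/day (SD, n = 4 each). BGN (38126_at) had means of 3010 ± 1414, 4249 ± 1184 and 1587 ± 338. For both genes the mean at 3 mg/kg/day was above that of vehicle, so their difference between doses spans more than the change from vehicle. TGFBI, a matrix protein induced by TGF-beta, was also lower than at 3 mg/kg/day (-0.93 ± 0.20, adjusted p = 0.00808). So was the chemokine CXCL12 on probe set 33834_at (-1.38 ± 0.28, adjusted p = 0.00455), but on 32666_at its change of -0.88 ± 0.28 was not called (adjusted p = 0.0766). TGFBI and CXCL12 (33834_at) likewise had higher means at 3 mg/kg/day, 647.7 and 846.2, than in vehicle animals, 551.9 and 559.1. Their differences between doses thus also span more than the change from vehicle.

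The 2 genes that rose from 3 to 400 mg/kg/day were the calponin CNN3 (0.66 ± 0.18, adjusted p = 0.0396), with means of 374.1 ± 76.2 and 594.4 ± 77.8 (SD, n = 4 each), and the laminin receptor subunit ITGA6 (0.90 ± 0.17, adjusted p = 0.00197). Called in the slope alone were PCOLCE, which enhances procollagen cleavage (-0.17 ± 0.04 per step, adjusted p = 0.0234), and the crosslinking transglutaminase TGM2 (-0.16 ± 0.04, adjusted p = 0.0401).

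Those called against vehicle at 400 mg/kg/day were ECM2 (-1.62 ± 0.41, adjusted p = 0.0339), the non-muscle myosin MYH10 (-1.19 ± 0.29, adjusted p = 0.0316) and IGFBP3, a carrier of insulin-like growth factors (-0.78 ± 0.19, adjusted p = 0.0305). ITGA6 was the 1 that rose (0.72 ± 0.18, adjusted p = 0.0322). ECM2, IGFBP3 and ITGA6 have further tested probe sets that were not called, with changes of -0.04 for ECM2, -0.31 for IGFBP3 and -0.35 and 0.21 for ITGA6. For these 3 genes the call therefore rests on 1 probe set.

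Summed markers of several cell types also differed between these animals, in both directions. The summed intensity of 12 measured stellate cell and fibroblast markers of 18 listed, most of it from BGN, DPT and VIM, ran from 5145.4 to 6812 in vehicle animals at 15 days and from 3484.7 to 4105.7 at 400 mg/kg/day. For 9 of 13 Kupffer cell markers the ranges were 4204.4 to 5607.1 and 2828.3 to 3721.6, and for 11 of 15 sinusoidal endothelial markers 3072.7 to 3457.3 and 2115.6 to 2670.6. The Kupffer sum was mostly CD14, with a mean of 2541 over all animals and a change of -0.68. Over the 9 Kupffer genes the median change was -0.33, with 7 lower. For 9 of 10 hepatocyte markers the sums ran from 74583.5 to 77674.1 and from 53916.2 to 62171.7. Among these 9, 1 was called, the cytochrome CYP2E1 (-3.56, adjusted p = 0.000161), while 4 were lower, the median change was 0.00 and albumin (ALB) also changed by 0.00.

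These 4 sums were lower without overlap. Higher without overlap were the sums of 6 of 11 T and NK cell markers (752.8 to 792.1 in vehicle animals and 852.8 to 935.5 at 400 mg/kg/day) and of 5 of 9 neutrophil markers (215.9 to 405.1 and 405.9 to 463.6). The single genes were not tested as a set. The median change was 0.03 over the 6 T and NK cell genes, with 2 lower. Over the 5 neutrophil genes it was -0.40, with 3 lower. The cholangiocyte sum (6 of 10) ran from 550.8 to 817.9 and from 467.9 to 639, and the red cell sum (3 of 6) from 1949.5 to 2997.8 and from 1507.1 to 2337.5, both with overlap. Smooth muscle markers (6 of 9) ran from 630.4 to 949.5 and from 884.4 to 1169.8, also with overlap.

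The part of these cell types in the lower TIMP1 and FN1 values was not tested. Single markers at 400 mg/kg/day were called in none of the 12 stellate, 9 Kupffer and 11 endothelial genes by limma, where 2.14% of all tested probe sets were called. At an unadjusted p under 0.05 there were 3, 3 and 5 of them, beside 940 of all 7535. The myofibroblast marker ACTA2 (32755_at) had a mean of 51 over all animals and a change of 0.15. At 4 days the stellate sum was 4775.8 to 5106.4 on vehicle and 3523.2 to 3528.3 at 400 mg/kg/day, beside 4262.5 to 5543.9 and 3168.4 to 3644.6 for Kupffer markers. Red cell markers ran from 4835.7 to 5204.3 on vehicle and from 1720.8 to 3391.3 at 400 mg/kg/day, and hepatocyte markers from 63950.8 to 65095.5 and from 52487.5 to 54424.2. All 4 of these sums were lower without overlap at 4 days, and so was the cholangiocyte sum. The neutrophil sum was higher without overlap at 4 days. The sinusoidal endothelial, T and NK cell and smooth muscle sums overlapped. With 2 animals against 2, 23.6% of all tested probe sets were lower without overlap. The part of the cell types in the 4-day values of the 10 genes was not tested.

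Of the 2 control genes read at both ends, ACTB differed at 4 days. Its 5' to 3' ratio was 0.748 to 0.988 in the vehicle animals and 1.02 to 1.21 at 400 mg/kg/day, while that of GAPDH overlapped (0.947 to 0.993 and 0.974 to 1.17). The part of the ACTB ratio in the 4-day values was not tested. At 15 days the ACTB ratio was 0.540 to 0.606 in vehicle animals and 0.552 to 0.839 at 400 mg/kg/day, with overlap. Between the vehicle groups the ACTB ratio was thus lower at 15 than at 4 days without overlap. That of GAPDH overlapped, with 0.721 to 1.31 in vehicle animals at 15 days. The part of the ACTB ratio in comparisons across days was not tested. All arrays had a 2% trimmed mean between 150.065 and 150.08 and medians from 55 to 71.6, and no 2 arrays were identical.

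Whether the 10 genes vary together from animal to animal was asked of the deviations from the group means over 23 animals. Of 45 pairs, 26 had a positive Pearson correlation, and the median was 0.058, with a range from -0.490 (COL1A1 with COL1A2) to 0.595. In all, 4 pairs had a permutation p under 0.05 and 0 passed after Benjamini-Hochberg adjustment over the 45. COL1A2 with COL3A1 gave r = 0.04 and COL1A1 with COL3A1 gave -0.03.

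The 4 pairs were COL6A3 with PDGFRA, COL3A1 with VIM, TIMP1 with FN1 and COL1A1 with LOX. COL6A3 with PDGFRA had r = 0.595 and rho = 0.615 (permutation p = 0.0051, adjusted p = 0.230), and r = 0.480 without the 2 animals farthest from the median of COL6A3. TIMP1 with FN1 had r = 0.595 and rho = 0.592 (permutation p = 0.0341, adjusted p = 0.433), and r = 0.541 without 2 animals. COL3A1 with VIM had r = 0.583 and rho = 0.496 (permutation p = 0.0250, adjusted p = 0.433), and r = 0.668 without 2 animals. COL1A1 with LOX had r = 0.454 and rho = 0.432 (permutation p = 0.0385, adjusted p = 0.433), and r = 0.342 without 2 animals. Values of 1 array share its labelling and scaling.

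**Figure D5:**
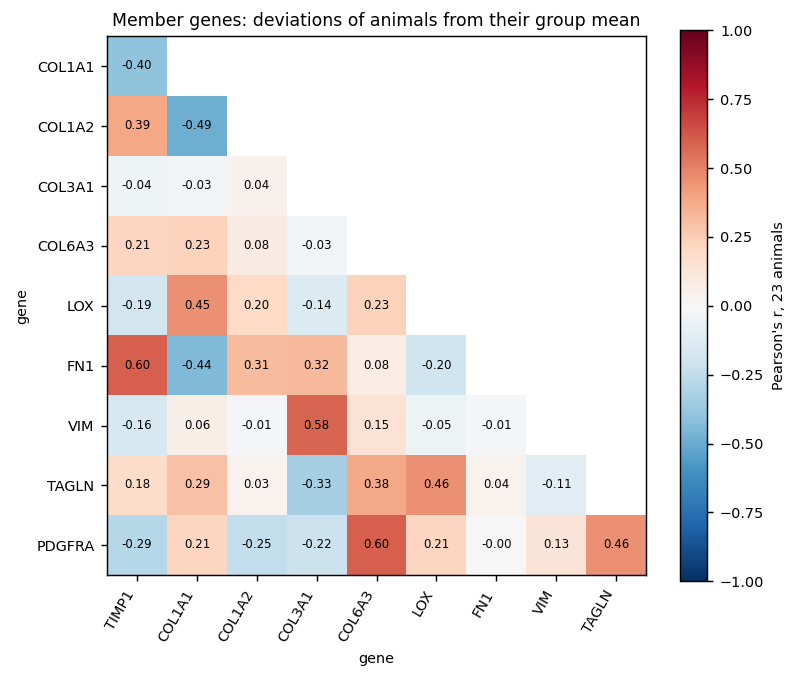
Pearson correlation between the 10 genes, each by its probe set with the highest mean, over 23 animals, as deviations of log2(intensity + 16) from the group mean. Colour runs from negative to positive r as given by the bar; the 45 pairs range from -0.490 to 0.595 and none passes adjustment.

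The genes most like TIMP1 in level over the 23 arrays, among 5452 other genes, were the aminopeptidase ANPEP (r = 0.733), the splicing factor SF3B4 (0.724), the transcription factor CEBPB (0.720), MAP1A (0.717) and IQGAP2 (0.685). These correlations include the differences between groups. Of the 5, CEBPB and IQGAP2 were called lower after 15 days at 400 mg/kg/day, by -0.89 (limma adjusted p = 0.0339) and -0.83 (adjusted p = 0.0468). At that dose 2.14% of all genes were called. The 5 were chosen by likeness to TIMP1 over arrays that include these groups, so the 2 calls add no support. None of the other matrix genes was among these 5. For COL1A2 the closest were DENND4A (0.730), PDIA4 (0.718), TSC22D1 (0.712), FOXJ3 (0.689) and U2AF1 (0.688), of which none was called at that dose.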

How the data were processed

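Per the submitters' processing notes the authors computed the deposited intensity values, on a linear scale, with MAS5; its version and settings are not given in the sources used here. Per the labels' protocols, total RNA came from frozen right lateral liver lobe. No further scaling was applied. The 67 control probe sets were left out, intensities were converted to log2 after adding 16, and probe sets with a mean at or above the 40th percentile (5.80, an intensity of 39.7) were tested, 7535 of 12558. A means model of the 7 groups was fitted to all arrays with limma 3.58.1 in R 4.3.3 (16 residual and 6.63 prior degrees of freedom, intensity trend), two-sided, with Benjamini-Hochberg adjustment over 7535. The script was tested on simulated data. Genes were named by the array annotation, and 5462 genes were represented by their tested probe set with the highest mean.

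The 10 genes and all gene lists were chosen with earlier results of these data known. Named besides the 10 were listed matrix genes called in any comparison, and the 5 genes most correlated with TIMP1 and COL1A2. Correlation p values came from 100000 permutations. Arrays came from separately numbered animals. Same-numbered animals of different groups did not deviate together (mean correlation -0.0023 over 58 pairs), so replicate numbers were not used to pair them. Alternatives changed the pseudocount, filter, scaling, variance options, dose scores and arrays left out.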

Additional observations from a re-analysis of the deposited data

Results flagged for a closer look

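In 56 groups of 4 animals, from 14 probe sets and the 4 doses at 15 days, the most extreme animal was compared with the others by its gap divided by the group's range. Chance alone flags about 1 in 20 such groups, and 7 of 56 were flagged. For FN1 (31720_s_at) at 30 mg/kg/day, replicate 1 at 3627.1 was the lowest (gap over range 0.931). For COL3A1 at 3 mg/kg/day, replicate 1 at 95.7 was the lowest (0.902), and for COL1A2 (32307_s_at) at 30 mg/kg/day it was replicate 3 at 58.5 (0.887).

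PDGFRA was flagged in 3 groups. On 1731_at the lowest animals were replicate 3 at 3 mg/kg/day with 36.9 (0.917) and replicate 2 at 400 mg/kg/day with 49.8 (0.936), and on 1988_at it was replicate 2 at 150 mg/kg/day with 110.6 (0.88). TIMP1 at 150 mg/kg/day had its highest animal, replicate 1 at 41.1, apart from the other 3 (0.855), in a group whose whole span was from 33 to 41.1.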

How the results depend on the processing

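The FN1 falls on 31720_s_at and 311_s_at (400 mg/kg/day against vehicle and against 3 mg/kg/day, and the slope) kept their direction and call under every alternative and without each animal in turn. TIMP1 at 400 mg/kg/day was called in 10 of 10 alternatives that tested it (-2.11 to -1.26) and in 3 of 7 fits without 1 animal; at 150 mg/kg/day these were 9 of 10 and 3 of 7, and for the slope 11 of 11 and 18 of 19. The count of member probe sets called at 150 mg/kg/day went from 1 to 0 under a filter at the 60th percentile, where TIMP1 was not tested, and from 0 to 1 over fits without 1 animal (0 without vehicle replicate 1 or 2 or 150 mg/kg/day replicate 2 or 4).

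The count for the mean of the 4 doses, chosen after seeing the data, went from 1 to 0 with no filter, with that filter and with only its own groups in the fit, and from 0 to 1 over fits without 1 animal. TIMP1 lost that call in 8 of the 19, without any 15-day vehicle animal, 30 mg/kg/day replicate 1, 150 mg/kg/day replicate 2 or 400 mg/kg/day replicate 1, 2 or 3 (adjusted p from 0.0178 to 0.294). Array weights gave 2 member calls at 4 days (FN1 31719_at and VIM) and 1 between the vehicle groups (VIM). COL3A1 at 400 mg/kg/day ranged from -0.627 to 0.00756 over fits without 1 animal, the latter without vehicle replicate 2. COL6A3 kept its slope call in 7 of 12 alternatives and its call against 3 mg/kg/day in 10 of 11, and gained one against vehicle in 2 of 11. The cause was not tested.

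With the replicate number as a block, the counts at 150 mg/kg/day and for the mean of the 4 doses were 0; TIMP1 at 150 mg/kg/day was then -1.96 (adjusted p = 0.0548) and the COL6A3 slope -0.20 (adjusted p = 0.0501), and no other member call changed. Groups of 2 to 4 arrays, and TIMP1 intensities near the filter's limit in treated animals, limit the precision.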
